A study of Mus musculus with 24 samples.

Results

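The 33 genes described here mark astrocytes as a cell type or mark astrocytes of one brain region. They were taken by symbol from a table of 40836 genes counted in 24 mouse brain libraries. All 33 symbols were in the table, and 32 passed the filter on low counts that left 20437 genes. Acsbg2, an acyl-CoA synthetase of the bubblegum family, did not pass, with 61 counts in all, at most 8 in a library and none in 7 libraries. The others had between 54 counts (Gli1) and 304308 counts (Slc1a2) per library. Polyadenylated RNA of brain was sequenced, and no sorting of cells is described. The libraries fall into 6 groups of 4, E4-05, E3-05, E4-10, E3-10, E4-15 and E3-15, by the E code and the time code in their names, and are numbered from 1 to 4 within a group. Neither code is spelled out in the labels, which give no strain, age or brain region. The series title names ApoE4, a human lipoprotein variant, and the library titles name 6 months from January to June.

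Astrocytes take up glutamate released at synapses, convert it to glutamine, buffer ions and water at vessels and synapses, and are coupled by gap junctions. Their gene expression differs between brain regions. Bergmann glia, the astrocytes that span the molecular layer of the cerebellum, carry much Slc1a3 and Gdf10 and respond to Sonic hedgehog released by Purkinje cells through Ptch1 and the factor Gli1. Astrocytes of the telencephalon carry the homeodomain factor Lhx2 and more Mfge8, and there Slc1a2 is the main glutamate transporter.

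In 8 of the 24 libraries, those whose column header is a multiple of 3, cerebellum and hindbrain genes were high, and these are called hindbrain-rich below. The 8 were recognised from region genes of these same libraries, not from a label. Gabra6, the GABA receptor subunit typical of cerebellar granule cells, ran from 85.5 to 533 CPM in the 8 and from 0 to 4.63 CPM in the other 16. CPM is the count scaled to library size, here after TMM normalization. Each of the 6 groups held 1 or 2 of the 8, with 2 in E3-10 and E4-15. Total counts ran from 37366013 to 99501989 per library. Although titled biological replicates, the libraries are nowhere said to stem from separate animals, and the p-values then speak of the spread among these samples alone, which may be technical.

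In the 8 hindbrain-rich libraries the astrocyte genes split. Of the 32 tested, 18 were higher than in the 16 other libraries, 6 were lower and 8 were not called, in edgeR's quasi-likelihood test at an adjusted p under 0.05 over all genes. Of all 20437 genes 57.5% were called, 30.1% higher and 27.4% lower, so the share of members called, 24 of 32, stands beside a high background. The median difference of the members was 0.19 on the log2 scale, against 0.04 over all genes tested. Changes past 2-fold were found for 9 members. Gdf10, Hopx, S100b, Gli1, Aqp4 and Ptch1 were higher by more than 2-fold, and Lhx2, Mfge8 and Slc1a2 were lower by more than 2-fold. For 8 members all 8 hindbrain-rich libraries lay above all 16 others, which held for 5.97% of all genes, and for 3 members all 8 lay below, which held for 7.72%. In bulk RNA a difference in the number of astrocytes cannot be told apart from a difference in RNA per astrocyte.

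**Figure D1:**
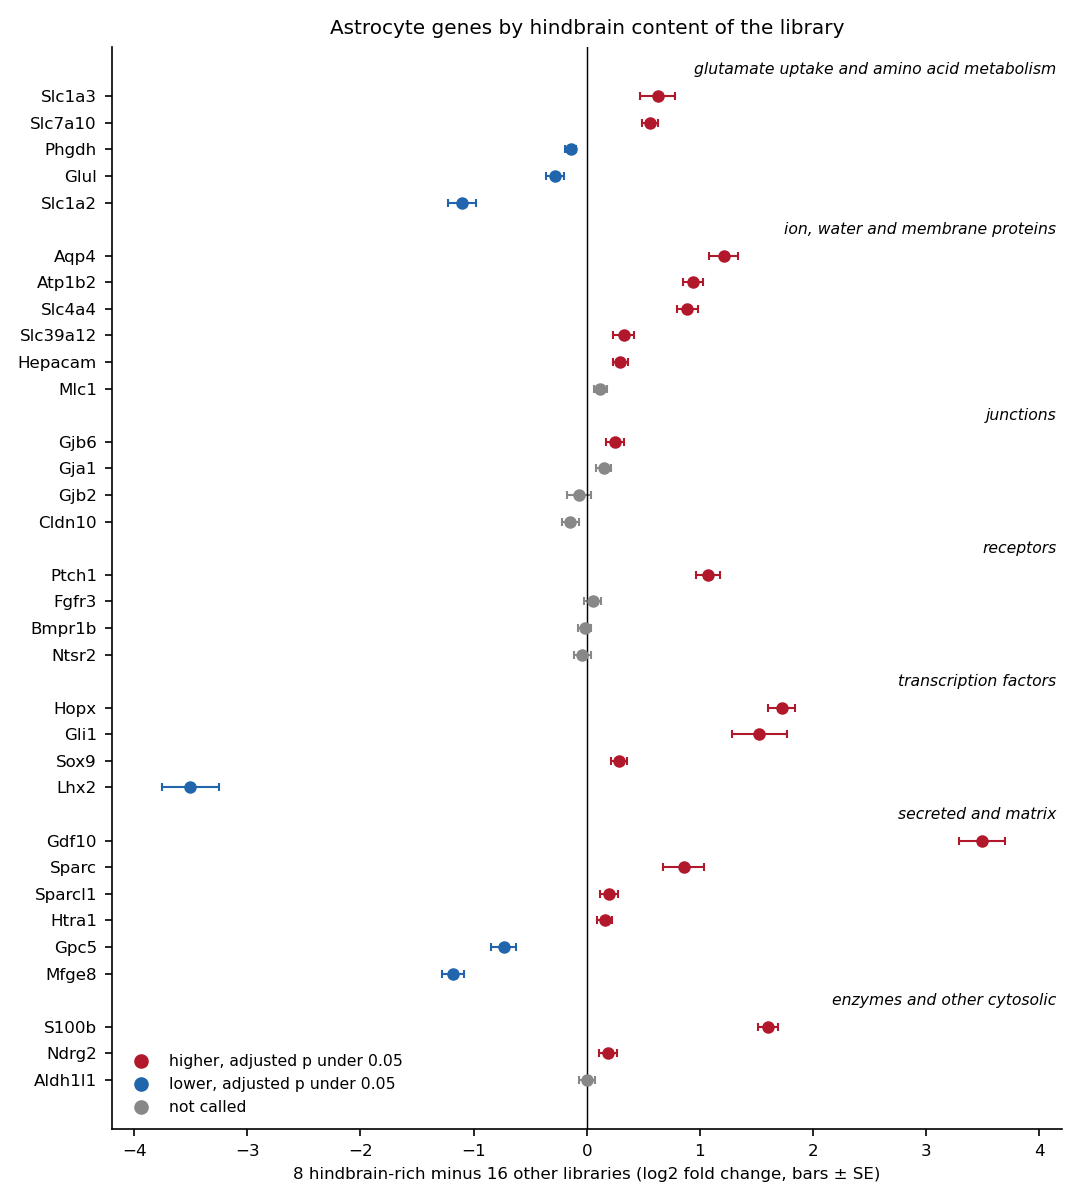
Difference of the 8 hindbrain-rich libraries from the 16 others for the 32 astrocyte genes tested, as a log2 fold change with its standard error, grouped by the role of the gene. The differences run from -3.50 for Lhx2 to 3.49 for Gdf10, and Aldh1l1, Bmpr1b, Ntsr2, Fgfr3 and Gjb2 lie within 1 standard error of 0.

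Promoter sequences are printed for the member with the largest rise, the member with the largest fall, and the glial glutamate transporter of the cerebellum, which carries a homeodomain motif. They run from 250 bases before to 50 bases after the annotated start, 5′ to 3′ on the strand of the gene, from RefSeq on GRCm38.p6. The count table was made on mm39, another build, so the positions are not those of the authors' alignment. Gdf10 lies at chr14:33923337-33923636 on the plus strand, Lhx2 at chr2:38339031-38339330 on the plus strand (the first of its annotated starts), and Slc1a3 at chr15:8710758-8711057 on the minus strand. Capitals mark TAATTA, the core that LIM homeodomain factors such as Lhx2 bind.
Gdf10: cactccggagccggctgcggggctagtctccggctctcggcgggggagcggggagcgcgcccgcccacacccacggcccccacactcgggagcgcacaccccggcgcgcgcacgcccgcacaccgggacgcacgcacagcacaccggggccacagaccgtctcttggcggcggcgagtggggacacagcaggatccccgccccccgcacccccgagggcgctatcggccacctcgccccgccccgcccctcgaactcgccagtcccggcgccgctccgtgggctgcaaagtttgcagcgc
Lhx2: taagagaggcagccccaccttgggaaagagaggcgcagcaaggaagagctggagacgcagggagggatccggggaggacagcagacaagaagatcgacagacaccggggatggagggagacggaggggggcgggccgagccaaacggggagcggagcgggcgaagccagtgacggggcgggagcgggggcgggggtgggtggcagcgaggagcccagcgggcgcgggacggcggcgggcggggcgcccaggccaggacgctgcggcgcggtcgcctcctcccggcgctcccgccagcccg
Slc1a3: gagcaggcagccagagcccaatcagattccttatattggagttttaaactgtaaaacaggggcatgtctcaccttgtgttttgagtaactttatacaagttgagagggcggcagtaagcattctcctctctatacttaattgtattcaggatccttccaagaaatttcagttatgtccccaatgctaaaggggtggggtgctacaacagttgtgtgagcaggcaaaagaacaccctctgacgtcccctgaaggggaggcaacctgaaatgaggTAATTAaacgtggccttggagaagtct
The promoters of Gdf10 and Lhx2 are rich in G and C, at 77.3% and 74.7%, against 45.3% for Slc1a3 and a median of 52.7% over all promoters. The search took in 36 promoters of 27 members, and none of Aqp4, Sox9, Gli1, Acsbg2, Sparcl1 and Atp1b2. Member promoters on a chromosome that was set aside were not searched, although the shares over all promoters include it. Of 4 motifs searched on both strands, TAATTA was in the promoters of Slc1a3 and Cldn10 (5.29% of all 32851 promoters hold it). ACAATG, bound by Sox factors, was in that of Bmpr1b (12.6% of all). GACCACCCA, bound by Gli factors, was in 0 of 36 (0.253% of all), and the palindrome of nuclear factor I was in 0 of 36 (0.0365% of all). A match is a run of letters in this window and not a measured site.

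All 5 Bergmann glia genes, Gdf10, Hopx, Ptch1, Gli1 and Slc1a3, rose. Gdf10, a secreted factor of the TGF-beta family, ran from 35.2 to 179 CPM in the hindbrain-rich libraries, with a median of 138 CPM, and from 6.85 to 13.4 CPM in the 16 others, with a median of 10.8 CPM. All 8 stood above all 16, although the 8 spanned 5.09-fold among themselves. The difference was 3.49 on the log2 scale (SE 0.20; edgeR adjusted p = 2.04e-11), or 11.3-fold. Hopx, a homeodomain-only protein that marks Bergmann glia and some other astrocytes, ran from 45.4 to 81.7 CPM (median 65.0) in the 8 and from 13.0 to 27.3 CPM (median 17.5) in the 16. These groups did not overlap, and Hopx was 3.30-fold higher (log2 1.72, SE 0.12, edgeR adjusted p = 2.67e-10).

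Both hedgehog readouts rose with them. Ptch1, the hedgehog receptor and itself a target of the pathway, ran from 131 to 235 CPM (median 183) in the 8 and from 64.7 to 105 CPM (median 84.4) in the 16. The groups were separate and the rise was just over 2-fold (log2 1.07, SE 0.11, edgeR adjusted p = 3.37e-08). Gli1, the zinc finger factor induced by hedgehog signalling, was scarcer, at 5.28 to 15.0 CPM (median 13.4) in the 8 and 1.48 to 6.87 CPM (median 4.22) in the 16. It was 2.88-fold higher (log2 1.52, SE 0.24, edgeR adjusted p = 1.69e-05), and the groups overlapped through a single hindbrain-rich library, E3-10 1. Slc1a3, the transporter GLAST, ran from 348 to 1171 CPM (median 942) in the 8 and from 366 to 662 CPM (median 589) in the 16. Here 2 hindbrain-rich libraries fell into the range of the 16 or below it, and the rise was 1.55-fold (log2 0.63, SE 0.15, edgeR adjusted p = 0.00156). Its call ended with the replicate block within time code (0.42, adjusted p = 0.0527).

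The telencephalic members fell. Lhx2 ran from 1.90 to 11.4 CPM (median 4.08) in the hindbrain-rich libraries and from 21.4 to 66.5 CPM (median 49.2) in the 16 others. No library of either set reached the other, and the difference was -3.50 on the log2 scale (SE 0.25, edgeR adjusted p = 3.53e-10), a ratio of 1 to 11.3. Lhx2 is also made by neurons of the cortex, and no value here separates the cell types. Mfge8, a secreted protein that bridges dying cells to phagocytes, ran from 50.7 to 84.9 CPM (median 65.0) in the 8 and from 93.6 to 178 CPM (median 150) in the 16. It was lower in all 8 than in any of the 16 (log2 -1.18, SE 0.10, edgeR adjusted p = 2.74e-09).

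**Figure D2:**
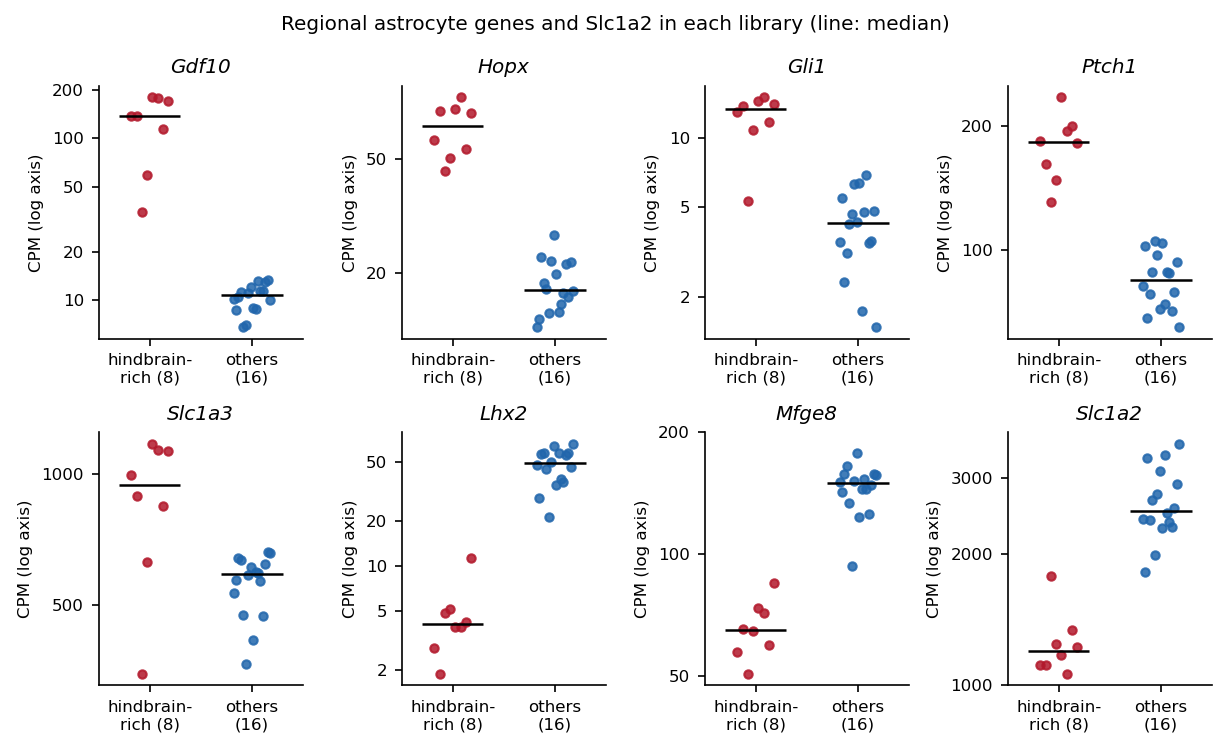
CPM on a log axis in each library for the 7 regional members and Slc1a2, with the 8 hindbrain-rich libraries on the left of each panel, the 16 others on the right and a line at the median. Gdf10, Hopx and Ptch1 are higher in all 8, Lhx2, Mfge8 and Slc1a2 are lower in all 8, and Gli1 and Slc1a3 overlap.

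The glutamate transporters moved in opposite directions. Slc1a2, the transporter GLT-1, ran from 1063 to 1787 CPM (median 1197) in the hindbrain-rich libraries and from 1824 to 3592 CPM (median 2520) in the 16 others. All 8 lay below all 16 (log2 -1.10, SE 0.12, edgeR adjusted p = 1.21e-07). Counts of Slc1a2 divided by counts of Slc1a3 in the same library came to 0.938 to 5.13 (median 1.18) in the 8 and to 3.19 to 5.69 (median 4.80) in the 16. Only E3-10 1, at 5.13, had a ratio within the range of the 16, and the 7 other hindbrain-rich libraries reached at most 1.98.

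Downstream of uptake the changes were small. Glul, the glutamine synthetase, was at 1060 to 1709 CPM in the 8 and 1213 to 1829 CPM in the 16, and fell by 0.28 on the log2 scale (SE 0.08, edgeR adjusted p = 0.00391). Phgdh, the enzyme that opens serine synthesis, fell by 0.14 (SE 0.05, edgeR adjusted p = 0.0159), and in 2 of the 6 titled months the hindbrain-rich libraries were above the others. The call ended with no filter on low counts (adjusted p = 0.0522) and with sets of adjacent columns as a term (0.0688). Slc7a10, an exchanger of small neutral amino acids such as serine, went the other way. It ran from 42.4 to 58.5 CPM (median 47.9) in the 8 and from 25.3 to 40.9 CPM (median 31.9) in the 16, without overlap (log2 0.56, SE 0.07, edgeR adjusted p = 8.19e-07). All 5 members of this role were called, 2 higher and 3 lower.

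Of the 6 genes of ion and water balance and membrane proteins, 5 rose and 0 fell. Aqp4, the water channel of astrocyte endfeet, ran from 403 to 521 CPM (median 485) in the 8 and from 114 to 296 CPM (median 199) in the 16. The groups were apart and the rise was 2.31-fold (log2 1.21, SE 0.13, edgeR adjusted p = 7.39e-08). Atp1b2, a beta subunit of the sodium pump, ran from 1320 to 1922 CPM (median 1770) in the 8 and from 667 to 1262 CPM (median 914) in the 16. It too did not overlap (log2 0.94, SE 0.09, edgeR adjusted p = 1.77e-08). Slc4a4, a sodium bicarbonate cotransporter, ran from 412 to 598 CPM (median 496) in the 8 and from 211 to 370 CPM (median 256) in the 16. It was 1.85-fold higher with the sets apart (log2 0.89, SE 0.09, edgeR adjusted p = 8.03e-08).

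The other membrane proteins of this role changed less. The zinc transporter Slc39a12 rose by 0.33 on the log2 scale (SE 0.09, edgeR adjusted p = 0.00476) and the adhesion protein Hepacam by 0.30 (SE 0.06, edgeR adjusted p = 4.05e-04), both with overlap. Mlc1, a membrane protein that pairs with Hepacam, stood at 0.12 (SE 0.06, edgeR adjusted p = 0.0752) and was not called, although it passed with upper-quartile factors (0.0420) and with sets of adjacent columns as a term (0.0429).

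Of the 4 junction genes only Gjb6, the connexin 30 gene, was called (log2 0.25, SE 0.08, edgeR adjusted p = 0.00956). Gja1, the connexin 43 gene, was at 249 to 293 CPM in the 8 and 181 to 299 CPM in the 16 (log2 0.15, SE 0.07, edgeR adjusted p = 0.0569). It passed the threshold in limma-voom (adjusted p = 0.0488), with upper-quartile factors (0.0294), with a filter of 1 CPM in 8 libraries (0.0470) and with sets of adjacent columns as a term (0.0283). Gjb2, the connexin 26 gene, which meningeal fibroblasts also make, stood at -0.07 (SE 0.10), and the claudin Cldn10 at -0.14 (SE 0.08). Among the receptors Ptch1 alone was called. The growth factor receptor Fgfr3, the neurotensin receptor Ntsr2 and the BMP receptor Bmpr1b had differences of 0.05, -0.04 and -0.02, each below its standard error of 0.08, 0.08 and 0.05. Sox9, a factor that sets astrocyte identity, rose by 0.29 (SE 0.07, edgeR adjusted p = 0.00165).

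Secreted and matrix proteins held members of both directions. Sparc, a matricellular protein also made by vessel cells, ran from 730 to 895 CPM (median 833) in the 8 and from 220 to 783 CPM (median 429) in the 16. It rose 1.81-fold (log2 0.86, SE 0.18, edgeR adjusted p = 4.30e-04), and 1 of the 16, E4-05 4, reached into the range of the 8. Gpc5, a glypican, ran from 18.1 to 37.7 CPM (median 23.3) in the 8 and from 35.8 to 48.0 CPM (median 41.1) in the 16. It fell (log2 -0.73, SE 0.11, edgeR adjusted p = 9.62e-06), and the sets overlapped through E3-10 1 alone. The matricellular Sparcl1 and the serine protease Htra1 rose by 0.20 and 0.16 (SE 0.08 and 0.07), with edgeR adjusted p of 0.0491 and 0.0460, close to the threshold.

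S100b, a calcium-binding protein, had the smallest p of all members. It ran from 251 to 368 CPM (median 308) in the hindbrain-rich libraries and from 76.9 to 156 CPM (median 99.2) in the 16 others. The sets were widely apart, and the rise was 3.03-fold (log2 1.60, SE 0.09, edgeR adjusted p = 9.05e-12). Ndrg2, a cytosolic protein of astrocytes, rose by 0.19 (SE 0.08, edgeR adjusted p = 0.0492). Aldh1l1, the folate enzyme widely used as a pan-astrocyte marker, was at 45.2 to 64.4 CPM in the 8 and 36.0 to 59.2 CPM in the 16, a difference of 0.01 (SE 0.07, edgeR adjusted p = 0.959). The calls of Htra1, Sparcl1 and Ndrg2 depended on the libraries and settings used. Leaving out a single library ended the call of Htra1 for 17 of the 24 libraries (edgeR adjusted p from 0.0171 to 0.168), that of Sparcl1 for 17 (0.0318 to 0.174) and that of Ndrg2 for 21 (0.0192 to 0.118). All 3 calls were lost together without 15 of the 24 libraries, and all 3 were kept without E4-10 1 or without E3-15 4. They also ended with all libraries in DESeq2 (adjusted p = 0.0661 for Htra1, 0.0524 for Sparcl1 and 0.0514 for Ndrg2) and with RLE factors.

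Levels between genes were compared per length, as mean CPM per kilobase of exon in the GENCODE vM21 gene models. The order of the most abundant members differed between the sets. Sparcl1 led both, at 761 CPM per kilobase in the 8 and 650 in the 16. In the 8 it was followed by Atp1b2 (421), Glul (384) and Ndrg2 (281), and in the 16 by Glul (463), Ndrg2 (244) and Atp1b2 (215). Slc1a2 stood at 95.6 CPM per kilobase in the 8 and 202 in the 16, and Slc1a3 at 105 in the 8 and 65.9 in the 16. The lowest of the tested members were Lhx2 in the 8, at 1.09 CPM per kilobase, and Gli1 in the 16, at 0.835.

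Markers of several other cell types differed between the same sets, in a comparison where 30.1% of all genes were called higher and 27.4% lower. The summed CPM of 8 microglia markers was 141 to 217 in the 8 and 270 to 404 in the 16, and all 8 markers were lower. That of 7 endothelial markers was 335 to 464 in the 8 and 341 to 442 in the 16, with 0 of 7 called in edgeR and 1 at an unadjusted p under 0.05. Summed oligodendrocyte markers were 8249 to 19760 CPM in the 8 and 6373 to 15290 CPM in the 16, and pan-neuronal markers 5128 to 6215 CPM in the 8 and 6188 to 8862 CPM in the 16. The pan-neuronal markers were not alike. Syt1 ran from 539 to 825 CPM in the 8 and from 1412 to 2478 CPM in the 16, and Stmn2 from 407 to 471 CPM and from 306 to 358 CPM. Medians in the 8 and the 16 were 2428 and 2418 CPM for Snap25 and 279 and 276 CPM for Rbfox3. The 4 markers of oligodendrocyte precursors summed to 108 to 156 CPM in the 8 and 157 to 243 CPM in the 16, with 3 called lower. The 9 mural and meningeal fibroblast markers summed to 263 to 531 CPM in the 8 and 212 to 530 CPM in the 16, with 4 called higher and 1 lower. Choroid plexus markers summed to 338 to 2889 CPM in the 8 and 19.6 to 1060 CPM in the 16. The part of these cell types in the astrocyte differences was not tested.

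Within each of the 6 titled months, which hold 1 or 2 hindbrain-rich libraries each, 20 of the 24 called members kept their direction in all 6. The members were called on these same libraries, so the months are no independent check. No such share over all called genes is given here. The 4 exceptions were Slc1a3, Ndrg2, Sparcl1 and Phgdh. By month Gdf10 stood between 1.98 and 4.13, Hopx between 0.963 and 2.17, Aqp4 between 1.04 and 1.54, and Mfge8 between -1.52 and -0.93 on the log2 scale. Slc1a3 was above 0 in 5 months and at -0.36 in the other one.

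Further astrocyte genes that are not members split in a like way, with 10 of 16 higher and 4 lower. Over all genes 30.1% were higher and 27.4% lower. Aldoc, the brain aldolase, ran from 1170 to 1957 CPM in the 8 and from 632 to 958 CPM in the 16 (log2 0.99, SE 0.07, edgeR adjusted p = 4.24e-10). The acyl-CoA synthetase Acsbg1 (log2 0.69, SE 0.06), the cholesterol acyltransferase Lcat (1.13, SE 0.11) and the syndecan Sdc4 (0.64, SE 0.07) also rose. Among the 4 that fell, the deiodinase Dio2 ran from 30.6 to 39.7 CPM in the 8 and from 40.1 to 102 CPM in the 16 (-0.96, SE 0.15). The chaperone clusterin, Clu, ran from 517 to 667 CPM in the 8 and from 699 to 1016 CPM in the 16 (-0.55, SE 0.07). Gfap, the intermediate filament protein, was at 210 to 699 CPM in the 8 and 109 to 273 CPM in the 16. These genes, like the lists that follow, were chosen with earlier results of these data known.

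Of 10 hedgehog pathway genes 7 were higher and 1 lower, beside 30.1% higher and 27.4% lower over all genes. The coreceptors Boc (log2 1.70, SE 0.17), Cdon (1.29, SE 0.11) and Gas1 (0.84, SE 0.09) rose, as did the factor Gli2 (0.46, SE 0.08). Boc ran from 29.1 to 75.2 CPM in the 8 and from 9.83 to 25.7 CPM in the 16, without overlap. Gli3, which mostly acts as a repressor, was the gene that fell (-0.54, SE 0.10). Of 12 genes of serine and glutamate handling 5 were higher and 4 lower, beside the same shares of all genes. The transporter of Purkinje cells Slc1a6 rose (3.32, SE 0.17) and the neuronal transporter Slc1a1 fell (-1.08, SE 0.08). The serine hydroxymethyltransferase Shmt2 rose (0.68, SE 0.06), and Srr, the racemase that makes D-serine, fell (-0.98, SE 0.11).

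The 8 hindbrain-rich libraries were not alike in region. E3-10 1 had the least Gabra6 (85.5 CPM) and the most of the hindbrain factor Hoxb3 (28.4 CPM) and the myelin gene Mbp (9299 CPM). E4-10 2 followed with 219 CPM of Gabra6, and the other 6 had 348 to 533 CPM. E3-10 1 was the lowest of the 8 for 7 of the 32 members and the highest for 11. Over all genes tested it was lowest for 25% and highest for 24.1%, against 21.9% and 34.4% of the members.

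Bergmann glia genes were lowest in the library with the least Gabra6. In the order of rising Gabra6, from E3-10 1 through E4-10 2, E3-15 3, E4-05 3, E3-05 2, E3-10 4 and E4-15 4 to E4-15 1, Gdf10 measured 35.2, 59.5, 115, 137, 138, 179, 170 and 178 CPM. Slc1a3 in that order measured 348, 628, 844, 889, 995, 1171, 1130 and 1132 CPM. Both climbed with Gabra6 over the first 6 libraries and were level over the last 3. In E3-10 1 Gdf10 was 3.92-fold, Slc1a3 2.86-fold, Gli1 2.63-fold and Hopx 1.59-fold below the median of the other 7. Ptch1 and Mfge8 were also lowest there, at 1.40-fold and 1.29-fold below.

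Other members went the opposite way in E3-10 1. Gpc5 was 1.85-fold, Slc1a2 1.53-fold, Glul 1.45-fold and Fgfr3 1.43-fold above the median of the other 7, and each was the highest of the 8. S100b, at 368 CPM, and Aqp4, at 508 CPM, did not fall below the other 7 there, which had 251 to 345 CPM of S100b and 403 to 521 CPM of Aqp4. Without E3-10 1 the difference of the hindbrain-rich libraries was 3.61 for Gdf10, 0.71 for Slc1a3, 1.57 for S100b and -1.18 for Slc1a2 on the log2 scale, and Fgfr3, at 0.05 over all 8, stood at -0.013. E3-10 1 is a single library, in which region and myelin content cannot be told apart.

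**Figure D3:**
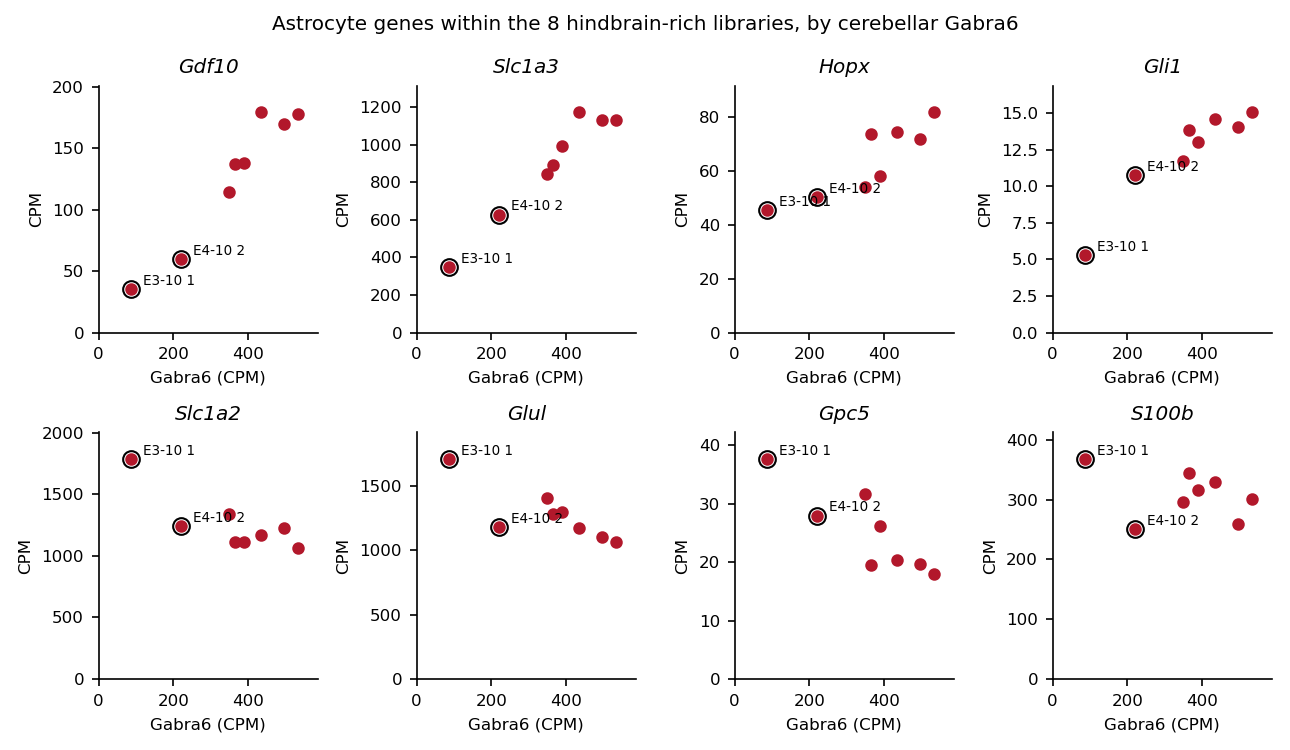
CPM of 8 astrocyte genes in the 8 hindbrain-rich libraries, plotted over Gabra6 in CPM, with both libraries low in Gabra6 circled and named. Gdf10, Slc1a3 and Gli1 are lowest in E3-10 1, Slc1a2, Glul and Gpc5 are highest there, and S100b shows no such drop.

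The 16 other libraries also differed among themselves. The coefficient of variation of a member ran from 5.57% (Gja1) to 60.3% (Lhx2) in the 8, with a median of 12.7%, and from 7.86% (Bmpr1b) to 38.2% (Gli1) in the 16, with a median of 13.7%. E4-05 4 had the most of the thalamic gene Prkcd (400 CPM). The summed thalamus markers were 1329 CPM in E4-05 4 and 96.3 to 1055 CPM in the other 15. E4-05 4 was the highest of the 16 for 15 of 32 members and the lowest for 3, while over all genes it was highest for 14.0% and lowest for 14.2%.

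Sparc was highest where thalamus markers were highest. E4-05 4, E3-10 3 and E3-15 1, whose thalamus markers summed to 1329, 1055 and 812 CPM, had the 3 highest values of Sparc, at 783, 684 and 617 CPM. E3-15 4 and E4-10 3, where they summed to 96.3 and 106 CPM, had the least Sparc, at 225 and 220 CPM. The 3 libraries high in Sparc also had the highest sums of oligodendrocyte markers among the 16, at 15290, 11440 and 14810 CPM. Their telencephalon markers had the lowest sums, at 557, 772 and 966 CPM. In E3-15 4 and E4-10 3 oligodendrocyte markers summed to 10980 and 7827 CPM, and telencephalon markers to 2584 and 2536 CPM. Which of these goes with Sparc was not tested. Lhx2 was lowest in E4-05 4, at 21.4 CPM, and highest in E3-15 4, at 66.5 CPM.

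E4-05 4 shared several differences with the hindbrain-rich libraries. Against the median of the other 15, Sparc was 1.88-fold, S100b 1.58-fold, Slc4a4 1.48-fold and Atp1b2 1.38-fold higher in it. Lhx2 was 2.37-fold, Mfge8 1.61-fold and Slc1a3 1.61-fold lower. Other members were not alike. Slc1a3 was lowest in E4-05 4 and higher in most of the hindbrain-rich libraries, Glul (1829 CPM) and Phgdh (72.1 CPM) were the highest of the 16 in E4-05 4 and lower in the hindbrain-rich set, and Hopx and Gdf10, at 14.5 and 7.01 CPM, were below the median of the other 15. Without E4-05 4 the hindbrain-rich difference was 1.63 for S100b, 0.88 for Sparc and 0.58 for Slc1a3 on the log2 scale.

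At the other end, E3-05 1 was the lowest of the 16 for 14 of 32 members and the highest for 0, while over all genes it was lowest for 6.64%. It had 114 CPM of Aqp4, 39.9 CPM of Gjb6 and 76.9 CPM of S100b. The haemoglobin gene Hbb-bs was at 146 CPM in it and at 167 CPM in E4-05 1, and at most 19.6 CPM in the other 14. Aqp4 in E4-05 1 was 137 CPM. The hindbrain-rich library E3-05 2 had 167 CPM of Hbb-bs and was the lowest of the 8 for 0 of 32 members. In E3-05 1 telencephalon markers summed to 2052 CPM (557 to 2584 in the 16) and thalamus markers to 170 CPM (96.3 to 1329). The part of blood and of region in these levels was not tested.

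**Figure D4:**
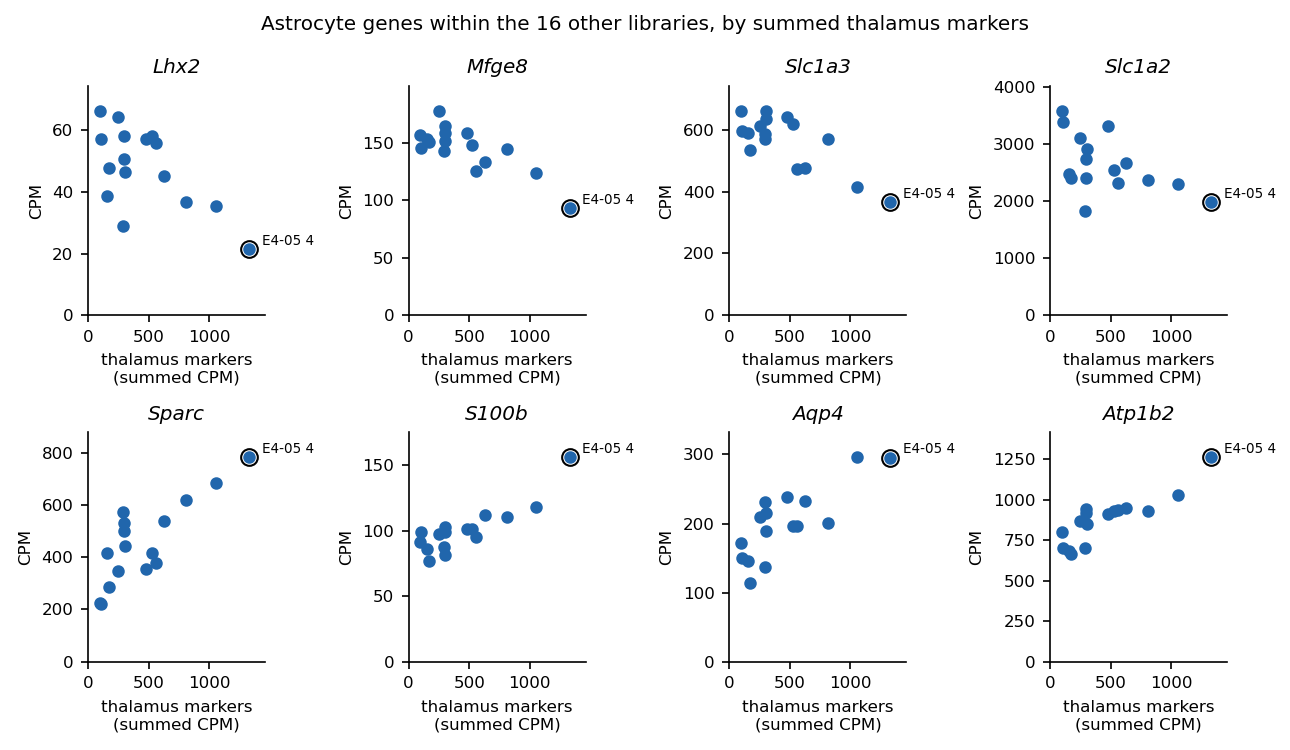
CPM of 8 astrocyte genes in the 16 other libraries, plotted over the summed CPM of 6 thalamus markers, with the library highest in them circled and named. Lhx2 and Mfge8 are lowest in E4-05 4, and Sparc, S100b and Atp1b2 are highest there.

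Between the E codes edgeR called no member, and DESeq2 called 1, Gjb2 at time code 10. E4 was compared with E3 with a term for the 8 hindbrain-rich libraries in the fit, so that their unequal number in the groups was taken out. The term gives all 8 the same difference, and differences in region among the 8 were not taken out. Averaged over the time codes, 11 of 32 members were above 0, with a median of -0.04 on the log2 scale, against 0.00 over all genes. The smallest p were those of Sparcl1 (-0.17, SE 0.08), Htra1 (-0.10, SE 0.06) and Hepacam (-0.09, SE 0.06), each with an edgeR adjusted p of 1.00. Over all genes 0% were called in edgeR. Unadjusted p fell below 0.05 for 557 genes, 1 of them a member (Sparcl1), while DESeq2 as well as limma-voom called 0.

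At time code 05, 22 of 32 members were above 0 in E4-05 against E3-05, with a median of 0.10. Gja1 had the smallest p, at 225 to 299 CPM in E4-05 and 181 to 251 CPM in E3-05 (log2 0.21, SE 0.11, edgeR adjusted p = 0.994). The groups overlapped, as they did for Sox9 (0.19, SE 0.11) and Ntsr2 (0.19, SE 0.12), and 0 members had an unadjusted p under 0.05. Over all genes 0% were called in edgeR and 549 had an unadjusted p below 0.05, with 0 calls in DESeq2 or limma-voom. The median over all genes was 0.0061 in DESeq2 and -0.0059 in limma-voom. The median of the members was 0.00 without E4-05 4 and 0.14 without E3-05 4.

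At time code 10, 29 of 32 members lay below 0 in E4-10 against E3-10, with a median of -0.19, and 7 had an unadjusted p under 0.05. The median over all genes was 0.0011 in DESeq2 and 0.0026 in limma-voom. The directions of the members come from the same libraries and are not independent. Among the 8 hindbrain-rich libraries, E3-10 4 was the highest for 37.5% of the members, against 10.9% of all genes. E4-10 2, which held the pituitary gene Gh at 6099 CPM, was the lowest for 37.5%, against 11.5%. Without any 1 library the median of the members ran from -0.23 to -0.17. edgeR called 0 members and 0.00979% of all genes, with 1023 genes at an unadjusted p under 0.05. limma-voom called 0 members and 4 genes, and DESeq2 called 1 member, Gjb2, and 33 genes. Gjb2 measured 14.7, 13.2, 13.4 and 11.4 CPM in E4-10 and 16.1, 27.4, 26.9 and 21.6 CPM in E3-10. All 4 libraries of E4-10 lay below all 4 of E3-10, and the difference was -0.81 on the log2 scale (SE 0.17), with an adjusted p of 0.158 in edgeR, 0.108 in limma-voom and 0.00524 in DESeq2. Without any 1 library it ran from -0.94 to -0.72, with an edgeR adjusted p of 0.0596 to 0.725. E3-10 was the high group. Its mean of 23.0 ± 5.28 CPM (SD, n = 4) stood above the means of 13.2 to 18.1 CPM in the other 5 groups.

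Gjb6 and Sparcl1 were the other members whose E4-10 libraries all lay below those of E3-10. Gjb6 ran from 41.3 to 63.0 CPM in E4-10 and from 66.1 to 77.9 CPM in E3-10 (log2 -0.42, SE 0.13, edgeR adjusted p = 0.683). Sparcl1 ran from 1568 to 1826 CPM in E4-10 and from 1974 to 2674 CPM in E3-10. Of all genes 1.31% lay below in this way, and 0.553% lay above, where 0 members did. Hepacam had the third smallest p (-0.27, SE 0.10, edgeR adjusted p = 0.943). Of the 16 further astrocyte genes 14 were below 0, with Aldoc (-0.32, SE 0.12), Acsbg1 (-0.27, SE 0.11), Gfap (-0.66, SE 0.29) and Sdc4 (-0.25, SE 0.12) at the smallest p and 0 called in edgeR, with 5 at an unadjusted p under 0.05.

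Markers of several other cell types and regions also lay below 0 at this time code, with 0 called in edgeR, while 9 of 10 telencephalon markers lay above it. The summed mural and meningeal fibroblast markers were 212 to 293 CPM in E4-10 and 435 to 530 CPM in E3-10, and all 9 were below 0, with a median of -0.90, 8 of them at an unadjusted p below 0.05. All 6 thalamus markers (median -0.83, summed 106 to 482 CPM in E4-10 and 249 to 1055 CPM in E3-10) and all 5 choroid plexus markers (median -1.10, summed 19.6 to 989 CPM in E4-10 and 502 to 1811 CPM in E3-10) lay below 0. So did all 10 oligodendrocyte markers (median -0.28) and all 10 hindbrain markers (median -1.46). Hindbrain markers summed to 0.331 to 202 CPM in E4-10 and 0.959 to 790 CPM in E3-10. Their highest sum was that of E3-10 1, and outside the hindbrain-rich libraries they summed to at most 9.37 CPM. An unadjusted p below 0.05 was found for 3 of the hindbrain markers and 0 of the thalamus, choroid plexus and oligodendrocyte markers. Summed endothelial markers were 370 to 422 CPM in E4-10 and 335 to 464 CPM in E3-10. Within the titled months Gjb2 stood at -0.59 in March and -0.96 in April, with Gjb6 at -0.24 and -0.75. The part of these cell types and regions in the differences of the members was not tested.

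**Figure D5:**
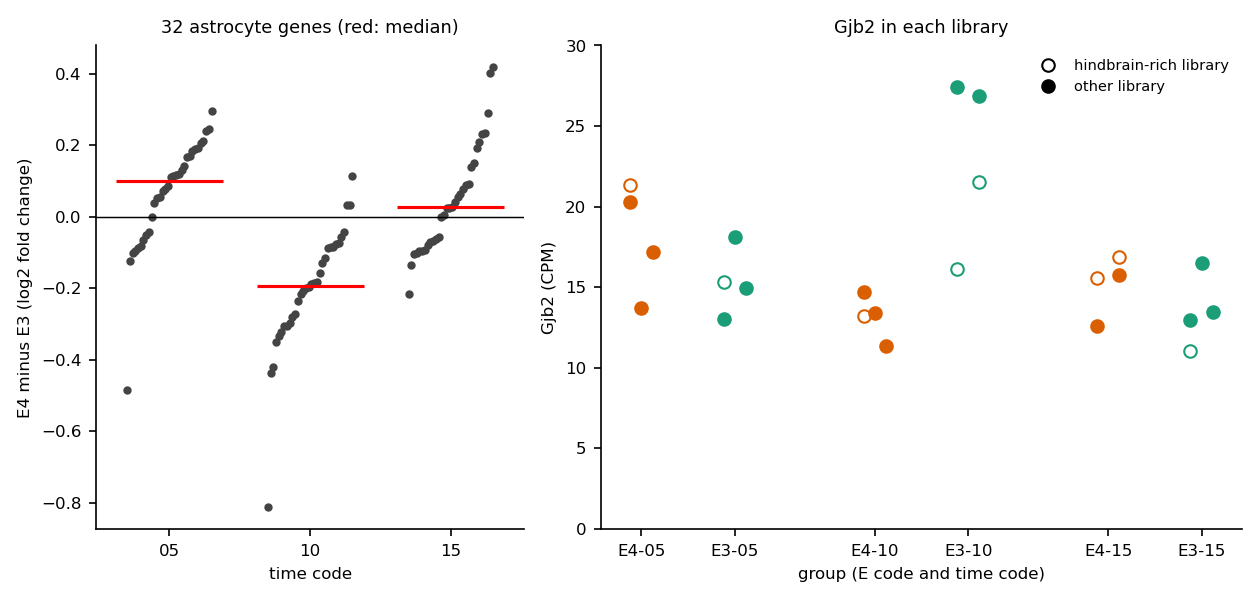
Left, E4 minus E3 as a log2 fold change at each time code for the 32 astrocyte genes tested, with the median in red. Right, CPM of Gjb2 in each library by group, open for hindbrain-rich libraries. The median is -0.19 at time code 10, where the 4 libraries of E4-10 lie below the 4 of E3-10.

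At time code 15, 19 of 32 members were above 0 in E4-15 against E3-15, with a median of 0.03. The smallest p were those of Mfge8 (0.24, SE 0.15), Gpc5 (-0.21, SE 0.17) and Gdf10 (0.42, SE 0.34), with edgeR adjusted p of 1.00. Mfge8 ran from 71.7 to 158 CPM in E4-15 and from 59.7 to 157 CPM in E3-15, and the groups overlapped. Over all genes 0% were called in edgeR and 391 had an unadjusted p below 0.05, 0 of them members. Neither DESeq2 nor limma-voom called any, with 0 genes in each. The median over all genes was 0.0044 in DESeq2 and 0.012 in limma-voom.

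Time codes were compared averaged over the E codes, and edgeR, DESeq2 and limma-voom called 0 members. Libraries of time code 05 are titled January or February, those of 10 March or April and those of 15 May or June. A difference between time codes can therefore not be told apart from one between titled months. For time code 10 minus 05, 18 of 32 members were above 0, and Phgdh (0.11, SE 0.05), Slc1a2 (0.25, SE 0.13) and Ntsr2 (0.15, SE 0.09) had the smallest p. Of all genes 0% were called in edgeR, 824 having an unadjusted p below 0.05, 1 of them a member, while DESeq2 called 18 genes and limma-voom 0. For time code 15 minus 10 the smallest p were those of Gjb2 (-0.28, SE 0.12), Sox9 (-0.15, SE 0.08) and Gdf10 (0.35, SE 0.23). There 0.00489% of all genes were called, with 1577 at an unadjusted p below 0.05, 1 of them a member. For time code 15 minus 05 they were Sox9 (-0.24, SE 0.08, edgeR adjusted p = 0.946), Lhx2 (0.61, SE 0.24) and Gjb2 (-0.21, SE 0.12), with 0.0538% of all genes called and 931 at an unadjusted p below 0.05, 2 of them members. DESeq2 called 18 and 36 genes and limma-voom 1 and 0 in these comparisons, and neither called a member.

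Sox9 lay lowest at time code 15 in the E3 groups. Its mean was 44.7, 38.5 and 38.5 CPM in E4-05, E4-10 and E4-15 and 38.9, 41.8 and 34.0 CPM in E3-05, E3-10 and E3-15, with SDs of 3.88 to 9.19 CPM (n = 4 each). These differences are of the size of the spread within groups. The time comparisons share groups, since time code 10 enters the first and the second and time code 15 the second and the third.

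For differences of differences edgeR, DESeq2 and limma-voom called 0 members. For E4 minus E3 at time code 15 minus the same at 05, Lhx2 (0.89, SE 0.48), Mfge8 (0.33, SE 0.21) and S100b (-0.31, SE 0.20) had the smallest p. edgeR called 0% of all genes. An unadjusted p below 0.05 was found for 563, 0 of them members, and the other tools, DESeq2 and limma-voom, called 0. For E4 minus E3 in the hindbrain-rich libraries minus the same in the others, Gjb2 (0.50, SE 0.18), Sparcl1 (-0.39, SE 0.15) and Gpc5 (-0.47, SE 0.19) had the smallest p, with edgeR adjusted p of 0.995. Here too 0% of all genes were called in edgeR, in DESeq2 and in limma-voom. There were 853 genes at an unadjusted p below 0.05, 3 of them members. Each E code had 4 hindbrain-rich libraries, and the 95% interval for Gjb2 ran from 0.12 to 0.88. That interval is not adjusted for the choice of Gjb2 as the member with the smallest p.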

How the data were processed

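The authors deposited raw gene counts for 24 brain libraries in 1 table. Per the submitters' processing notes, reads were aligned with HISAT2 2.1.0 to mm39 and counted with featureCounts 2.0.6. Which annotation and which strand setting were used is not given in the sources used here. Between 62.6% and 70.8% of counts from 1 to 19 were even in each library, as where both reads of a pair are counted. Columns were matched to libraries by the column number in each description.

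The counts were analysed in R 4.3.3 with edgeR 4.0.16. filterByExpr over the 6 groups (minimum count 10) kept 20437 genes, TMM factors scaled the libraries, and glmQLFit took 1 coefficient for each group and 1 for the columns whose header is a multiple of 3 (17 residual degrees of freedom). p-values were adjusted by Benjamini-Hochberg over all genes in a comparison, with a threshold of 0.05. The method recovered large known changes planted in simulated counts, between the column sets and between E codes averaged over time codes. Smaller changes and single time codes were not simulated. Exon lengths are from GENCODE vM21. Alternatives were other scalings and filters, DESeq2 1.42.0, limma-voom (limma 3.58.1), terms for month, adjacent columns and library number, halved counts, stricter thresholds and leaving out libraries.

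Named genes followed a rule. In the hindbrain comparison any member may be named, with full values for the regional members and the 6 others with the smallest p. For E and time codes the called members are named, and where there are none the 3 with the smallest p. For other lists they are at most 4 genes past the threshold. The genes named without a call, and Gfap, Dio2, Clu and the named pan-neuronal markers, were chosen after their values were seen. The members, the lists and the comparison by column header were chosen with earlier results of these data known. The library numbers were not taken as pairs. The highest correlation of log2 CPM between libraries was 0.983, and none were merged.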

Additional observations from a re-analysis of the deposited data

Results flagged for a closer look

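Among 32 members looked at over the 8 hindbrain-rich libraries, 4 had 1 library standing apart on the log2 scale by Dixon's ratio, where chance alone gives about 1.6. In E3-10 1, Slc1a2 was at 1787 CPM against 1063 to 1336 CPM in the other 7, and Gli1 at 5.28 CPM against 10.8 to 15.0 CPM. In E4-10 2, which also held the pituitary gene Gh at 6099 CPM, Atp1b2 was at 1320 CPM against 1640 to 1922 CPM. In E3-10 4, Bmpr1b was at 29.9 CPM against 22.9 to 25.9 CPM.

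Of 15 members, those with the 3 smallest p in any comparison of E codes or time codes, each looked at within the 6 groups of 4 libraries (90 sets of values), 4 sets had 1 library apart after the hindbrain-rich difference was taken out, where chance gives about 4.5. Sox9 was at 42.7 CPM in E4-10 4 (the other 3 at 33.8 to 35.2 CPM on that adjusted scale), and Ntsr2 at 147 CPM in E4-05 4 (others 103 to 109 CPM). Gjb6 was at 39.9 CPM in E3-05 1 (others 55.9 to 59.9 CPM), and Slc1a2 at 2671 CPM in E3-05 4 (others 2367 to 2411 CPM).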

How the results depend on the processing

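Of 3513 values recomputed, over 24 settings that leave out 1 library and 17 others, 3374 were marked as the same. Of the rest, 96 lost a call or fell in count, 13 gained a call or rose in count, 28 changed sign and 2 medians moved. The value of a member was the same if it kept its direction and its side of the threshold. A count of calls was the same within 1.5-fold, and a median if it moved by less than the spread between libraries, whatever its sign. The median at time code 15, 0.027, thus counted as the same at -0.0046 without 1 library. In the hindbrain-rich comparison, 15 to 20 members were higher and 6 or 7 lower without any 1 library, and the median ran from 0.16 to 0.22. With at least 1.5-fold required, 10 were higher. With the replicate block over all groups 16 were higher and 6 lower, and with the replicate block within time code 14 and 6. Libraries with the same number and time code did not deviate together (median correlation 0.049 over 12 pairs, from -0.187 to 0.160). The block changed no count of calls for the E or time codes. At time code 10, DESeq2 called 1 member lower. The median for E4 minus E3 in hindbrain-rich minus other libraries was -0.18 with month and -0.26 with sets of adjacent columns as a term, against -0.07, and the cause was not tested. Aldh1l1, with a difference of 0.01, turned to -0.0069 with RLE factors, -0.0068 with DESeq2, -0.0073 with month, -0.041 with the block within time code, -0.045 without the Hbb-bs libraries and -0.0015 with halved counts, and ran from -0.029 to 0.038 without 1 library. Bmpr1b turned to 0.0051 with upper-quartile factors and ran from -0.045 to 0.0020 without 1 library. Fgfr3 ran from -0.013 to 0.093 and Gjb2 from -0.14 to 0.0013 in that way. At time code 15, Mfge8 turned to -0.069 without the hindbrain term and Gpc5 to 0.11 in the 16 other libraries alone. S100b at time code 15 minus 05 turned to 0.14 without that term. The common spread between libraries, a coefficient of variation of 22.5%, and 4 libraries per group limit what the E code comparisons can show.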

Other observations

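Acsbg2, the member below the filter, had at most 8 counts in a library, or 0 to 0.120 CPM in the 8 hindbrain-rich libraries and 0 to 0.197 CPM in the 16 others, so no difference was detectable at this depth. E3-10 4 was the highest of the 8 hindbrain-rich libraries for 12 of the 32 tested members and the lowest for 1. E4-10 2 was the lowest for 12 and the highest for 0. Over all genes tested E3-10 4 was highest for 10.9% and lowest for 10.7%, against 37.5% and 3.12% of the members. E4-10 2 was lowest for 11.5% of all genes and highest for 13%, against 37.5% and 0% of the members.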
